A study of Mus musculus with 12 samples.

Results

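The proteasome subunit genes were taken as the protein coding genes whose symbols are Psma, Psmb, Psmc or Psmd followed by a number, without Psmb8 and Psmb9. There were 37 such genes among 52858 genes in the deposited tables, of which 22027 were protein coding. RNA was measured in 12 libraries of mouse hearts in 4 groups of 3. C57BL/6J hearts and hearts of Slit2-Tg mice, which carry a human Slit2 cDNA under the CMV promoter, were perfused ex vivo on a Langendorff apparatus. The transgenic line was made in oocytes of a C57 by CBA cross, and the paper names C57BL/6J as its background strain. Heterozygotes were screened by PCR, and the zygosity of the hearts sequenced is not stated. The CMV promoter is not restricted to a cell type. All mice were males of 3 to 5 months. The hearts with ischemia and reperfusion, abbreviated IR (C57-IR, and Slit2-IR for the transgenic ones), had no flow for 20 min and were then reperfused for 40 min, and the non-IR hearts of both genotypes (C57-non-IR, Slit2-non-IR) were perfused throughout for 80 min, so that the controls were perfused ex vivo as well. The mouse Slit2 gene lay between 0.0847 and 0.813 FPKM (fragments scaled to the length of the gene and the size of the library) in the 12 libraries, and since the transgene is a human cDNA this value does not check the genotype labels.

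The proteasome degrades proteins that carry chains of ubiquitin, and it is a main route of protein removal in the heart muscle cell. Its core particle is a barrel of 2 kinds of rings. The outer rings are made of alpha subunits (Psma genes), which gate the entrance, and the inner rings of beta subunits (Psmb genes), 3 of which cut peptide bonds. The regulatory particle caps the barrel. Its base holds the ATPases (Psmc genes) that unfold the substrate, and its lid (most Psmd genes) removes the ubiquitin. The subunits are known to be controlled together, through the transcription factor Nfe2l1 with small Maf partners such as Mafk, when proteasome activity is short. The comparisons ask whether the RNA of these genes differs with IR, or between the transgenic line and its background strain. Since the line came from a cross, the transgene cannot be told apart from other differences between the lines. The part of the transgene itself was not tested.

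Of the 37 genes, 36 passed the filter on low values, which left 15240 genes in the test. The exception was Psmb11, the form of Psmb5 found in the thymus, which had 0 reads in all 12 libraries. The thymus genes Foxn1, Dntt and Rag1 were at 0 as well. Psma8, the form of Psma7 found in male germ cells, passed with 7 to 23 reads per library and a mean of 0.402 FPKM. The other 35 genes were all above 1 FPKM on average, and 22 of the 36 had a mean FPKM higher than 90% of tested genes. Libraries held between 16601154 and 24841291 reads on genes, and the 36 genes together took 0.264 to 0.308% of them.

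The alpha subunits differed widely in FPKM. Psma6 was the highest, with a mean of 93.2 FPKM over the 12 libraries, and Psma3 the lowest of the 7 common ones, with 15.98 FPKM. Psma1 (32.6 FPKM), Psma4 (31.2 FPKM), Psma5 (29.5 FPKM), Psma7 (28.7 FPKM) and Psma2 (19.6 FPKM) lay between them. Each of these proteins has the same number of copies in the barrel, but their RNA differed up to 5.83-fold in FPKM. Comparisons of FPKM between genes, here and below, rest on the deposited gene lengths. These were 1234 bases for Psma6 and 3894 for Psma3, which had 28712 and 15700 reads over the 12 libraries. Among the beta subunits without a cutting site, Psmb1 had 90.3 FPKM, Psmb4 64.4 FPKM, Psmb2 47.4 FPKM and Psmb3 32.5 FPKM.

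Of the subunits that cut, Psmb5 (chymotrypsin-like) had 91.4 FPKM, Psmb6 (caspase-like) 63.4 FPKM and Psmb7 (trypsin-like) 28.1 FPKM. Psmb10, which takes the place of Psmb7 in the immunoproteasome, had 23.2 FPKM. Its share of the summed Psmb7 and Psmb10 FPKM was 39.7 to 51.2% across the libraries. This share rests on deposited gene lengths of 1705 bases for Psmb10 and 3421 for Psmb7, which had 9843 and 23954 reads in total. In FPKM, the 2 other immunoproteasome subunits were far rarer beside the subunits they replace. Psmb8 made up 3.25 to 9.63% of the summed Psmb5 and Psmb8 FPKM, and Psmb9 2.74 to 5.95% of the summed Psmb6 and Psmb9 FPKM. These proteins are abundant in leukocytes, and the summed level of 8 leukocyte genes ran from 111.3 to 242.3 FPKM; its part in these shares was not tested.

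In the base of the regulatory particle, the ATPases Psmc5 (69.0 FPKM), Psmc1 (62.9 FPKM), Psmc3 (61.5 FPKM) and Psmc6 (48.5 FPKM) were well above Psmc4 (27.6 FPKM) and Psmc2 (17.5 FPKM). Psmd2, a scaffold of the base, had 50.4 FPKM, the ubiquitin receptor Psmd4 25.9 FPKM and the scaffold Psmd1 12.9 FPKM. In the lid, Psmd7 (42.0 FPKM) and Psmd12 (34.8 FPKM) led, followed by Psmd8 (24.8 FPKM), Psmd3 (21.5 FPKM), Psmd6 (21.4 FPKM), Psmd13 (16.5 FPKM), Psmd14, the enzyme that removes ubiquitin (12.1 FPKM), and Psmd11 (9.17 FPKM). The lowest of the group were 3 chaperones that help to build the base and then leave it, with 6.42 FPKM for Psmd10, 2.59 FPKM for Psmd9 and 2.24 FPKM for Psmd5.

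**Figure D1:**
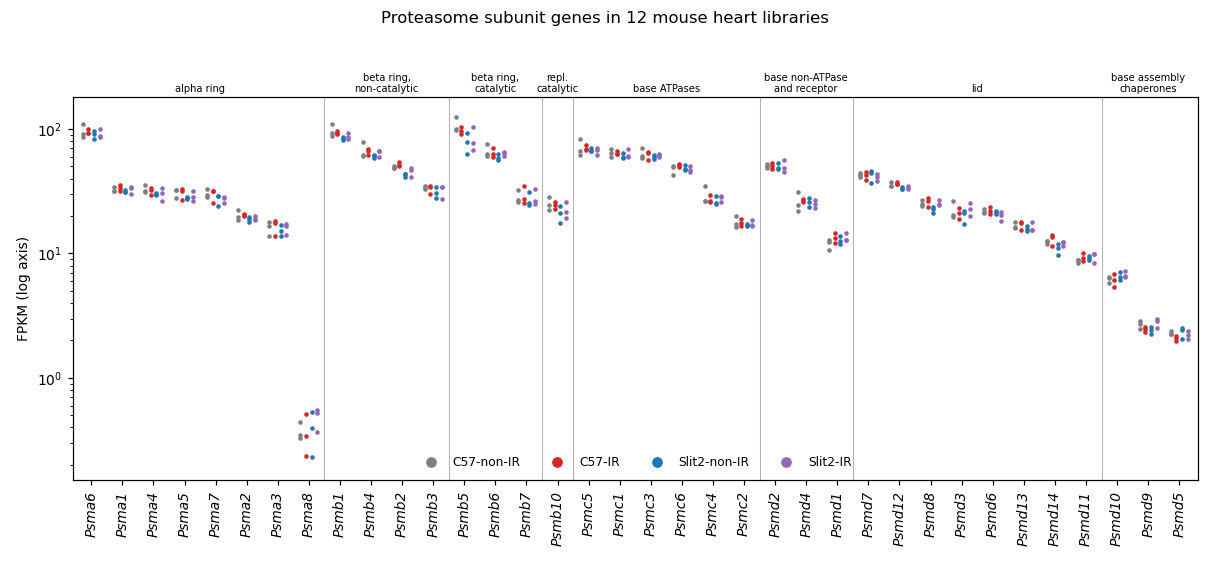
FPKM of the 36 tested proteasome subunit genes (log axis) in each of the 12 libraries, 1 point per library, coloured by group and ordered by place in the particle. Psma6, Psmb5 and Psmb1 lie near 90 FPKM, the chaperones Psmd5 and Psmd9 between 2 and 3 FPKM, and Psma8 below 1 FPKM, while the 4 groups of a gene lie close to each other.

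The genes were steady across the 12 hearts. The coefficient of variation over all libraries was under 10% for 30 of the 36 genes, with a median of 8.18%. That median was 8.17% over the 33 of them with a mean of at least 5 FPKM, and 12.7% over the 5738 tested genes with such a mean. The 5738 genes were not otherwise matched to the subunit genes in level. The SD within groups on the log2(FPKM + 1) scale had a median of 0.105 for the 36 genes and of 0.166 for those 5738 genes. The steadiest was Psma1, with a coefficient of variation of 4.66% and values from 30.2 to 35.3 FPKM. Psmb5 was the least steady of the genes above 1 FPKM, with a coefficient of 18.7% and values from 63.0 to 124.0 FPKM. The libraries carried the markers of heart muscle, with 7 ventricular muscle genes summing to 14446 to 22148 FPKM. Atrial genes summed to 1695 FPKM in Slit2-IR replicate 1 and to 26.6 to 240.4 FPKM in the other 11 libraries. In whole tissue, fewer cells of a type and less RNA per cell cannot be told apart.

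IR did not move the proteasome subunit genes by an amount that passed the test. Averaged over both genotypes, 0 of 36 genes had an adjusted p under 0.05 (limma's moderated test on log2(FPKM + 1), Benjamini-Hochberg over 15240 genes), while 3.49% of all tested genes did. At an unadjusted p under 0.05 the counts were 0 of 36 genes and 15.9% of all tested genes, and limma-voom on recovered reads gave 0 calls as well. The data also bound the change. The 95% interval of the mean IR effect lay within 1.25-fold in either direction for 36 of the 36 genes, and for 61.4% of all tested genes. With limma-voom on the recovered reads, which does not compress the change of low genes, 35 of 36 intervals lay within that range, and Psma8 was the exception. The median log2 fold change was 0.020 over the 36 genes and 0.0036 over all tested genes, with 27 genes higher and 9 lower (51.3% of all genes were higher). Leaving out 1 library at a time moved this median between -0.0022 and 0.052. Without C57-non-IR replicate 3, which gave the lowest value, 18 genes were higher and 18 lower. Without C57-non-IR replicate 1, which gave the highest, 30 genes were higher and 6 lower. With replicate 1 of every group left out, 33 genes were higher and 3 lower, and the median was 0.057.

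**Figure D2:**
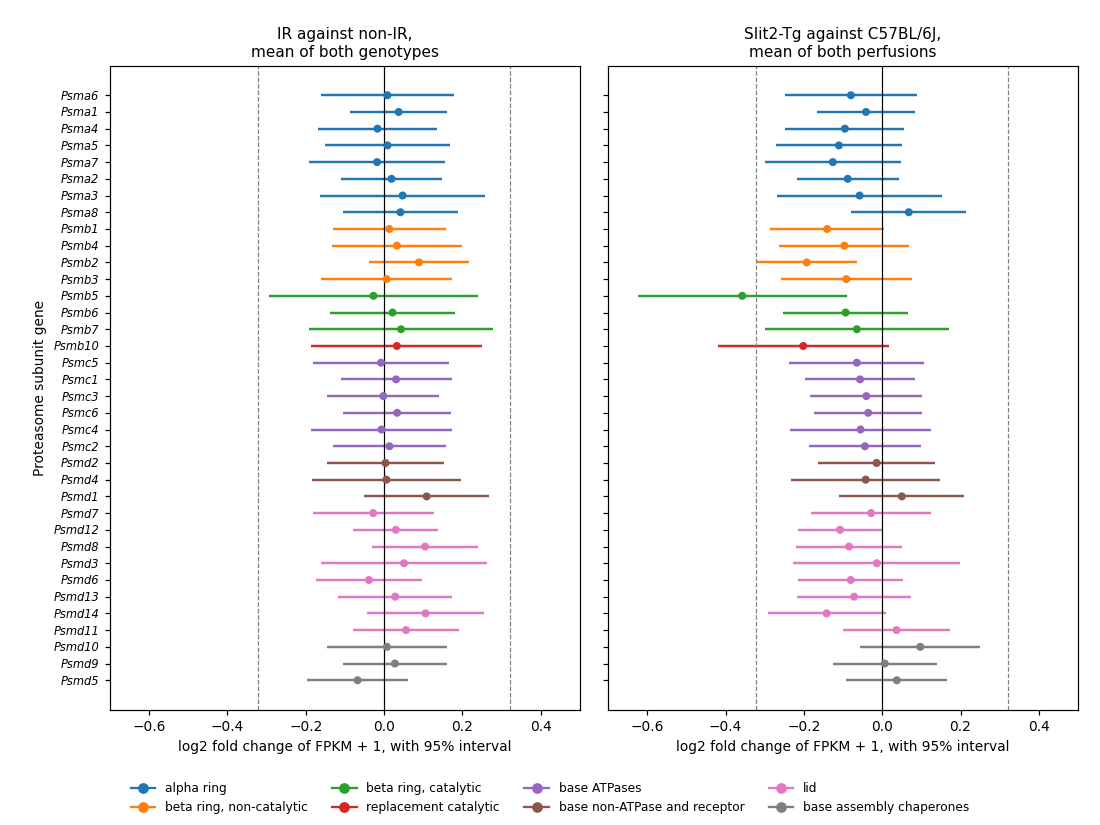
Log2 fold change of FPKM + 1 with its 95% interval for each of the 36 tested genes, for IR against non-IR (left, mean of both genotypes) and for Slit2-Tg against C57BL/6J (right, mean of both perfusions), coloured by place in the particle, with dashed lines at a 1.25-fold change. On the left all 36 intervals lie between the dashed lines and cross 0, and on the right 30 of 36 points lie below 0 and Psmb5 and Psmb10 reach past the lower line.

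The genes with the smallest p-values after IR were Psmd8 and Psmd14 of the lid, Psmb2, Psmd1 and Psmd5. Psmd8 had a log2 fold change of 0.10 in the mean over both genotypes (95% interval -0.030 to 0.24, adjusted p = 0.463). The deubiquitinase Psmd14 followed with 0.11 (-0.045 to 0.26, adjusted p = 0.518), then Psmb2 with 0.089 (-0.038 to 0.22), Psmd1 with 0.11 (-0.051 to 0.27) and the chaperone Psmd5 with -0.068 (-0.20 to 0.062, adjusted p = 0.670). The smallest adjusted p among the 36 genes was that of Psmd8. None of the 36 had IR and non-IR libraries that did not overlap over both genotypes, against 3.41% of all tested genes.

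The same held within each genotype. In C57-IR against C57-non-IR hearts, 0 of 36 genes passed the adjusted threshold (0.459% of all tested genes) and 0 passed the unadjusted one (8.96%), 18 genes were higher and 18 lower (50.5% of all tested genes were higher), and the median log2 fold change was -0.0013. The interval lay within 1.5-fold for 36 of 36 genes, compared with 81.4% of all tested genes. Psmb2 had 48.8, 48.7 and 50.003 FPKM in C57-non-IR hearts and 54.5, 50.9 and 51.0 FPKM in C57-IR hearts. The groups did not overlap, by a margin of less than 1 FPKM, and the log2 fold change of 0.083 had an interval of -0.097 to 0.26. The chaperone Psmd5 did not overlap in the other direction, with 2.27, 2.36 and 2.24 FPKM without IR and 1.997, 2.11 and 2.19 FPKM after it. These were 1 gene higher and 1 lower without overlap, where 6.75% of all tested genes were higher and 7.01% lower without overlap. The log2 fold changes of the other genes with the smallest p were 0.15 for Psmd1 (-0.071 to 0.38, adjusted p = 0.793), 0.098 for Psmc6 (-0.096 to 0.29), -0.087 for Psmd5 (-0.27 to 0.095) and -0.088 for Psmd9 (-0.28 to 0.10).

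For Slit2-Tg hearts, in the same contrast of IR with its perfused controls, 0 of 36 genes passed the adjusted threshold (0.525% of all tested genes) and 0 the unadjusted one (11.2%). Of the 36 genes, 29 were higher after IR (51.6% of all tested genes), with a median log2 fold change of 0.043, and 36 of 36 intervals lay within 1.5-fold (79.2% of all tested genes). Without Slit2-IR replicate 3, 21 genes were higher and the median was 0.014. The lid subunit Psmd8 had 23.0, 21.3 and 23.5 FPKM in Slit2-non-IR hearts and 24.7, 25.1 and 27.0 FPKM in Slit2-IR hearts. All 3 Slit2-IR hearts were above all 3 Slit2-non-IR hearts, as for 8.65% of all tested genes, and the log2 fold change was 0.18 (-0.015 to 0.37, adjusted p = 0.493). Next by p were Psmd9 with 0.14 (-0.044 to 0.33), Psmd14 with 0.14 (-0.075 to 0.35), Psmd3 with 0.16 (-0.14 to 0.46) and Psmb2 with a log2 fold change of 0.095 (-0.085 to 0.27, adjusted p = 0.754).

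The direction of these small differences depended on the scaling. The deposited values were scaled with median-of-ratios size factors, which rest on the genes with reads in every library. Scaled to reads outside the mitochondrial genome, 4 of 36 genes were higher after IR in the mean over both genotypes in place of 27, and the median of all tested genes moved from 0.0036 to -0.055. Reads on mitochondrial genes were 23.9 to 25.3% in C57-non-IR, 25.4 to 26.0% in C57-IR, 22.0 to 23.3% in Slit2-non-IR and 19.7 to 23.8% in Slit2-IR libraries. The part of these shares in the shift was not tested. Under that scaling 0 genes passed the adjusted threshold, and 35 of 36 intervals of the mean IR effect lay within 1.25-fold.

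Slit2-Tg hearts had slightly lower levels of most proteasome subunit genes than C57BL/6J hearts, and no gene passed the adjusted threshold. Without IR, 29 of 36 genes had a lower mean in the transgenic hearts, where 51.1% of all tested genes were lower, and the median log2 fold change was -0.087 for the 36 genes and -0.0027 for all tested genes. Of the 36 genes, 7 had Slit2-non-IR libraries that all lay below the C57-non-IR libraries, namely Psma4, Psmb1, Psmb2, Psmb5, Psmd8, Psmd12 and Psmd14, and 4.57% of all tested genes did so. The counts past the adjusted and the unadjusted threshold were 0 and 2 of 36 genes, beside 0.0394% and 3.19% of all tested genes.

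C57-non-IR replicate 1 weighed heavily in this comparison. The summed FPKM of the 36 genes was 1434 in that library and 1170 to 1313 in the other 11, and 29 of its 36 genes were above their own median over the libraries. Without it, 25 of 36 genes were lower in Slit2-non-IR hearts and the median log2 fold change was -0.024 in place of -0.087. After IR, where that library plays no part in the means, 28 of 36 genes had a lower mean in the transgenic hearts (50.1% of all tested genes) with a median log2 fold change of -0.048. That median was -0.021 without C57-IR replicate 2 and -0.076 without Slit2-IR replicate 3. There, 2 genes, Psmb2 and Psmd12, had Slit2-IR libraries that all lay below the C57-IR libraries, as 3.44% of all tested genes had.

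**Figure D3:**
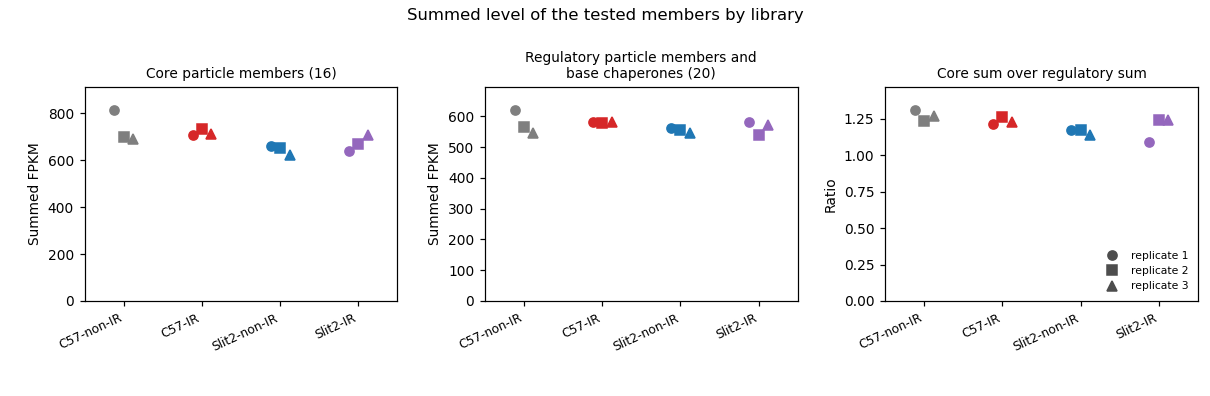
Summed FPKM of the 16 tested core particle genes (left), of the 20 genes of the regulatory particle and its base chaperones (middle), and the ratio of these sums (right), 1 point per library with the marker giving the replicate number. C57-non-IR replicate 1 has the highest core sum (813 FPKM) and the ratio lies between 1.09 and 1.31 in all libraries.

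The genotype comparison was also read for the core and the regulatory particle apart. Without IR, 15 of the 16 tested core genes were lower in Slit2-non-IR hearts with a median log2 fold change of -0.14, and 14 of the 20 regulatory genes with a median of -0.055. After IR the counts were 15 of 16 with a median of -0.073, and 13 of 20 with a median of -0.021. The 20 include the 3 base chaperones. Of the others, 5 of 6 ATPases, 1 of 3 other base genes and 7 of 8 lid genes were lower without IR. After IR these counts were 5 of 6, 2 of 3 and 6 of 8. The ratio of the summed core FPKM to the summed regulatory FPKM was 1.31, 1.23 and 1.27 in C57-non-IR and 1.22, 1.27 and 1.23 in C57-IR hearts. It was 1.17, 1.17 and 1.14 in Slit2-non-IR hearts, all below the C57-non-IR hearts. In Slit2-IR hearts it was 1.09, 1.24 and 1.24, which overlapped the C57-IR hearts. The ratio of 1.09 was that of Slit2-IR replicate 1, the library with the atrial sum of 1695 FPKM. The 3 base chaperones went the other way after IR, with 3 of 3 higher in Slit2-IR hearts and a median log2 fold change of 0.12. The difference between the particles was not tested, because the genes of a particle are not independent.

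Psmb5, which carries the chymotrypsin-like site and is the usual target of proteasome inhibitors, differed the most between the genotypes. It had 124.0, 97.97 and 100.8 FPKM in C57-non-IR hearts and 92.4, 78.1 and 63.0 FPKM in Slit2-non-IR hearts. These groups did not overlap, and the log2 fold change was -0.47 (-0.85 to -0.093, adjusted p = 0.9995). After IR it had 91.0, 103.1 and 97.1 FPKM in C57-IR hearts and 68.2, 77.4 and 103.3 FPKM in Slit2-IR hearts. There the highest Slit2-IR heart exceeded all C57-IR hearts, and the log2 fold change was -0.24 (-0.62 to 0.13, adjusted p = 0.9996). It was -0.41 (-0.78 to -0.047) without that heart (Slit2-IR replicate 3) and -0.12 (-0.51 to 0.28) without Slit2-IR replicate 1. Over both perfusions the log2 fold change was -0.36 (-0.62 to -0.090, adjusted p = 0.961). Without C57-non-IR replicate 1 it was -0.37 (-0.78 to 0.048) without IR and -0.30 (-0.58 to -0.027) over both perfusions, and without Slit2-non-IR replicate 3 it was -0.33 (-0.72 to 0.063) without IR.

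Psmb2, a beta subunit without a cutting site, differed less. It had 43.5, 43.6 and 41.0 FPKM in Slit2-non-IR hearts, all below the 48.7 to 50.003 FPKM of C57-non-IR hearts, and the log2 fold change was -0.20 (-0.38 to -0.019, adjusted p = 0.9995). In Slit2-IR hearts it had 41.4, 48.7 and 47.3 FPKM, all below the 50.9 to 54.5 FPKM of C57-IR hearts, with a log2 fold change of -0.19 (-0.37 to -0.0070, adjusted p = 0.9996). Over both perfusions the log2 fold change was -0.19 (-0.32 to -0.066, adjusted p = 0.729), and all but 1 of its Slit2-Tg libraries were below all C57BL/6J libraries. It was -0.20 (-0.33 to -0.061) without C57-non-IR replicate 1. After IR the log2 fold change of Psmb2 was -0.12 (-0.30 to 0.061) without Slit2-IR replicate 1. That library also had the highest atrial sum, 1695 FPKM, and the part of this was not tested. Psmb2 and Psmb5 were the 2 of 36 genes at an unadjusted p under 0.05 over both perfusions, where 4.13% of all tested genes were, and a fit with a replicate block had 4, with Psmd12 and Psmb10 added, while 0 of 36 passed the adjusted threshold (0.131% of all tested genes). After IR, Psmb2 was the 1 gene of 36 at an unadjusted p under 0.05 (3.16% of all tested genes) and 0 passed the adjusted threshold (0.0459%). It stayed at an unadjusted p under 0.05 after IR in 6 of 22 alternatives.

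**Figure D4:**
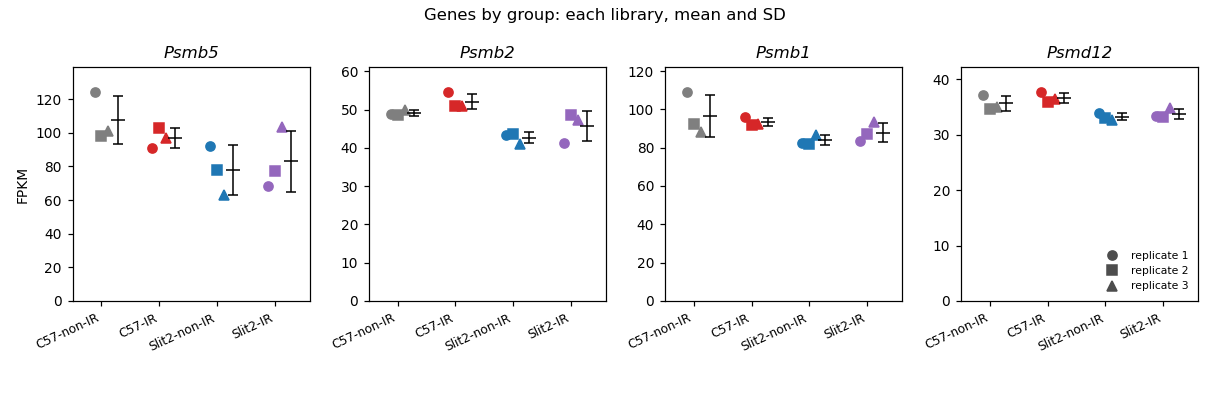
FPKM of Psmb5, Psmb2, Psmb1 and Psmd12 in each library by group, with the marker giving the replicate number and the bar beside each group its mean and SD over 3 libraries. Psmb2 and Psmd12 lie lower in both Slit2-Tg groups than in the C57BL/6J group with the same perfusion, without overlap, and Psmb5 spreads from 63.0 to 124.0 FPKM.

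The next genes by p had smaller differences. The lid subunit Psmd12 had 37.2, 34.7 and 35.0 FPKM in C57-non-IR and 33.9, 33.0 and 32.7 FPKM in Slit2-non-IR hearts, and 37.6, 35.9 and 36.4 FPKM in C57-IR and 33.3, 33.1 and 34.8 FPKM in Slit2-IR hearts. Its groups did not overlap under either perfusion, with log2 fold changes of -0.098 (-0.25 to 0.055) without IR, -0.12 (-0.27 to 0.037) after IR and -0.11 over both (-0.22 to 0.0011, adjusted p = 0.9992). Psmb1 had a log2 fold change of -0.19 without IR (-0.40 to 0.011) and of -0.14 over both perfusions (-0.29 to 0.0041), and Psmd14 of -0.14 over both (-0.29 to 0.0085). Psmb10 had -0.26 without IR (-0.57 to 0.049) and Psmd8 -0.16 (-0.35 to 0.035). After IR, Psmd6 had -0.14 (-0.32 to 0.055) and Psmd9 0.12 (-0.066 to 0.31). Over both perfusions 30 of 36 genes were lower in Slit2-Tg hearts (50.7% of all tested genes). The 95% intervals over both perfusions lay within 1.25-fold for 34 of 36 genes (68.8% of all tested genes), with Psmb5 and Psmb10 outside it.

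The effect of IR was not shown to differ between the genotypes for any proteasome subunit gene. In the test of the interaction, 0 of 36 genes and 0% of all tested genes passed the adjusted threshold, and 0 of 36 genes and 1.86% of all tested genes had an unadjusted p under 0.05. The differences were less well bounded here, since 8 of 36 intervals lay within 1.25-fold (15.6% of all tested genes, and 13 of 36 genes with a replicate block) and 34 of 36 within 1.5-fold (65.6%). Psmd9 came first. It had 2.88, 2.69 and 2.49 FPKM in C57-non-IR, 2.34, 2.49 and 2.57 in C57-IR, 2.56, 2.27 and 2.43 in Slit2-non-IR and 2.87, 2.504 and 2.96 in Slit2-IR hearts. Its interaction was 0.23 on the log2 scale (-0.034 to 0.50, adjusted p = 0.9998). Psmd3 (0.22, -0.20 to 0.65), Psmd8 (0.14, -0.13 to 0.41), Psmc6 (-0.13, -0.40 to 0.14) and Psmb6 (0.14, -0.18 to 0.46) followed.

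For some proteasome subunit genes, the libraries with replicate number 1 in their label stood apart in every group. Psmb7 had 32.5, 34.8, 31.4 and 32.7 FPKM in the 4 libraries numbered 1 (without and with IR in C57BL/6J, then without and with IR in Slit2-Tg), and 24.5 to 27.5 FPKM in the other 8. Psma6 had 95.6 to 110.2 FPKM in the libraries numbered 1 and 83.3 to 93.5 FPKM in the others, and Psmd2 had 52.6 to 56.9 and 45.3 to 50.6 FPKM. Psma3 was the opposite, with 13.7 to 14.004 FPKM in the libraries numbered 1 and 15.1 to 18.3 FPKM in the others. The libraries numbered 1 thus all lay above the other 8 for 3 of 36 genes and below them for 1, as they did for 2.87% and 2.3% of all tested genes. Psmc2 and Psmd3 were also highest in replicate 1 of all 4 groups, which made 5 of 36 genes with such an order and 6.4% of all tested genes, while 1 of 36 genes was lowest there in all 4 groups (Psma3), as were 6.58% of all tested genes. The labels name no batch, day or litter for these numbers, so the pattern was not tested.

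**Figure D5:**
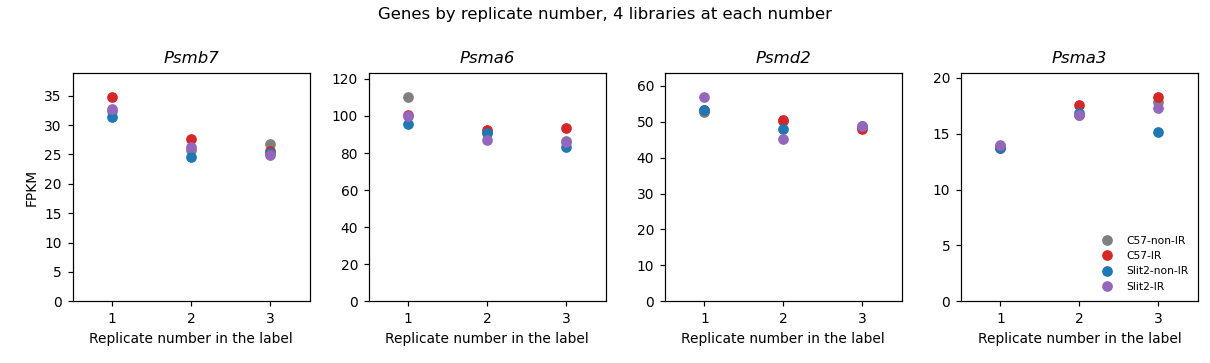
FPKM of Psmb7, Psma6, Psmd2 and Psma3 in the 12 libraries, arranged by the replicate number in the label and coloured by group. The 4 libraries numbered 1 lie above the other 8 for Psmb7, Psma6 and Psmd2 and below them for Psma3, whatever the group.

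Genes that act with the proteasome were read from 6 lists with 33 genes in the tables, all of them tested. They hold the core assembly chaperones (Psmg1, Psmg2, Psmg3, Psmg4 and Pomp), other caps and an inhibitor of the core (Psme1, Psme2, Psme3, Psme4 and Psmf1), Psmb8 and Psmb9, 10 ubiquitin receptors, shuttle factors and deubiquitinases, 7 genes of the Nfe2l1 pathway, and 4 ubiquitin genes. Of the 33 genes, 1 passed the adjusted threshold, upwards, in the mean IR effect, and 0 passed it in the other 6 comparisons. In the mean IR effect this count stands beside 3.49% of all tested genes, so its share is near the background. That gene was Mafk, a small Maf protein that binds DNA together with Nfe2l1 and related factors.

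Mafk had 17.4, 19.8 and 17.9 FPKM in C57-non-IR and 26.4, 56.4 and 32.6 FPKM in C57-IR hearts, and 13.4, 20.9 and 22.1 FPKM in Slit2-non-IR and 46.3, 66.8 and 36.3 FPKM in Slit2-IR hearts. Every IR heart was above every non-IR heart, and Mafk rose by 1.15 on the log2 scale in the mean over both genotypes (0.71 to 1.59, adjusted p = 0.0102). The log2 fold change was 0.96 in C57BL/6J hearts (adjusted p = 0.232) and 1.34 in Slit2-Tg hearts (adjusted p = 0.0694), and the interaction was 0.39 (-0.50 to 1.27). Without replicate 1 of every group its adjusted p in the mean IR effect was 0.0506. Nfe2l1 itself had 93.4 ± 8.77 FPKM in C57-non-IR, 102.1 ± 10.6 in C57-IR, 101.0 ± 10.9 in Slit2-non-IR hearts and 111.4 ± 22.9 FPKM after IR in that genotype (SD, n = 3), with a log2 fold change after IR of 0.13 (-0.10 to 0.36, adjusted p = 0.648). The ubiquitin gene Ubb had a log2 fold change of 0.38 after IR (-0.0045 to 0.77, adjusted p = 0.322).

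Among the other genes of these lists, Nfe2l2 had a log2 fold change after IR of 0.28 (0.043 to 0.51) and the shuttle factor Rad23b of 0.18 (0.020 to 0.34), while the protease Ddi2, which activates Nfe2l1, had -0.21 (-0.38 to -0.039) and the core inhibitor Psmf1 -0.14 (-0.28 to -0.0061). All 4 were at an unadjusted p under 0.05, as were 15.9% of all tested genes. The adjusted p-values of these 4 genes were 0.216, 0.244, 0.197 and 0.290. In the mean Slit2-Tg effect, Rps27a, a ubiquitin and ribosomal fusion gene, had a log2 fold change of -0.27 (-0.51 to -0.030), and the shuttle factor Ubqln2 had 0.15 (0.0076 to 0.30), with an adjusted p of 0.9992 for each. Both were at an unadjusted p under 0.05, as were 4.13% of all tested genes. The assembly chaperone Psmg4 had -0.35 (-0.70 to -0.0044, adjusted p = 0.9995) for Slit2-Tg without IR and 0.42 (0.076 to 0.77, adjusted p = 0.316) for IR within Slit2-Tg hearts. Its unadjusted p was under 0.05 in both, as for 3.19% and 11.2% of all tested genes.

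The promoters were read from RefSeq windows on GRCm38.p6, which run from 250 bases before to 50 bases after each gene start. Of the 37 genes, 30 had a window. The antioxidant response element TGACNNNGC, the site that Nfe2l1 or Nfe2l2 binds with a small Maf partner, was searched on both strands and lay in the windows of 5 of 30 genes (16.7%) and of 14% of all genes with a window. The box CCAAT lay in 12 of 30 (40%, and 41.1% of all genes), the cAMP response element TGACGTCA in 0 of 30 (2.03%), and the short heat shock element GAANNTTC in 1 of 30 (3.33%, and 9.04% of all genes). In 0 of the 30 windows did matches of different motifs overlap. The 5 matches to the antioxidant response element are shown because this is the site through which Nfe2l1 is known to act on the subunit genes. They run along the strand of the gene, with the match in capitals, which reads as the reverse complement GCNNNGTCA in Psmc6 and Psmd12.
Psmb5: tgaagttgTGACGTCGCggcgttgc
Psmb6: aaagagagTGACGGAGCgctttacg
Psmd9: ctagccggTGACCCCGCccacttcc
Psmc6: agccagtaGCTAAGTCAggcattgc
Psmd12: tctGCTGTGTCAcatttgcc

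The matches begin 47 bases before the start of Psmb5 (chr14:54618034-54618042, minus strand), 9 bases before that of Psmb6 (chr11:70525348-70525356), 31 before that of Psmd9 (chr5:123228159-123228167, where the RefSeq start lies inside the gene as the tables draw it), 227 before that of Psmc6 (chr14:45329597-45329605) and 247 before that of Psmd12 (chr11:107479281-107479289), the last 4 on the plus strand. In the mean over both genotypes, the log2 fold changes of these genes after IR were -0.027 for Psmb5, 0.021 for Psmb6, 0.028 for Psmd9, 0.033 for Psmc6 and 0.030 for Psmd12. The promoter of Psmb5 also held the 1 heat shock element. Psmb5 had the largest difference between the genotypes, and a link of the motif to that difference was not tested. Its 250 bases before the start (chr14:54617996-54618245, minus strand) are given with both matches in capitals.
Psmb5: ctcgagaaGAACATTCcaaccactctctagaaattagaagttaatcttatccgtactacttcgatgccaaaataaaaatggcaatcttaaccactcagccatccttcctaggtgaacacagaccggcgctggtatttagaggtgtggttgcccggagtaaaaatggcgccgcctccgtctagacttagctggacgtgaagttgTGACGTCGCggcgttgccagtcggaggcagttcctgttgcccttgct

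The genes lay on 16 chromosomes. Of the 37, 17 overlapped another gene of the tables, 8 of them a protein coding gene. For 3 of them, Psma2, Psmc3 and Psmd13, an overlapping gene had a mean of at least 1 FPKM, namely AW209491 with 3.62 FPKM, Slc39a13 with 3.97 FPKM, and Sirt3 and a pseudogene with 5.46 and 5.68 FPKM. The use of strand in counting is not given in the sources used here, so reads of these overlapping genes cannot be told apart from those of the subunits where they coincide.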

How the data were processed

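RNA of 12 mouse heart libraries (NEBNext Ultra kit, Illumina HiSeq, paired-end) in 4 groups of 3 was analysed. The authors deposited FPKM per gene and library, with Ensembl identifiers, gene lengths and GRCm38 coordinates. Their processing notes name HISAT2 and mm10, and the counting tool, annotation release and strand setting are not given in the sources used here. Once gene length was taken out, 100% of a library's FPKM were whole multiples (within 0.01) of 1 value, which gave back each gene's reads. Depth was 16601154 to 24841291 reads. Counting error weighs most on the genes with few reads per library. These were Psma8 (7 to 23 reads), Psmd10 (137 to 240), Psmd5 (252 to 463) and Psmd9 (296 to 478). Its part in the spread between libraries was not tested. Per-library columns left unused numbered 0. Genotype was read from the sample labels, and IR from the letters of each title against the groups of the methods. The study describes 3 hearts per group, and no label names the animal of a library, so p-values measure the spread between these libraries, called hearts here.

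Genes were tested when 3 or more libraries held at least 10 reads at median depth and the total was at least 15 reads. limma's moderated test (trended variance) was run on log2(FPKM + 1), with 4 group means in 1 fit and no covariate. This scale understates the change of low genes. P-values were adjusted over the 15240 tested genes (Benjamini-Hochberg, threshold of 0.05). Contrasts were the 4 pairwise comparisons, the interaction, and the mean effects of IR and of Slit2-Tg. The Slit2-Tg effect is the difference between the transgenic line and its background strain, and does not single out the transgene. The fit was tested on simulated data. Every member was named, with statistics for those past the adjusted threshold or else for the 5 with the smallest p of a contrast. In the lists of related genes, those past the adjusted threshold and Nfe2l1 were named by rule, and those named at an unadjusted p under 0.05 were chosen after their values were seen. Ubb, whose values are also given, met neither condition. Members and lists were chosen with earlier results of these data known. Paaf1 of the assembly list was not matched and is not analysed here. The values of 1 gene of the lists are not reported here.

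Alternatives were a pseudocount of 0.1, 2 other filters, a replicate block, separate fits of each pair of groups, TMM scaling, scaling to reads outside the mitochondrial genome, limma-voom on recovered reads, a robust prior variance, leaving out each library, and, added after the data were seen, leaving out replicate 1 of every group. Same-numbered libraries deviated together in all 3 pairs, with correlations of 0.143 to 0.294 for IR within Slit2-Tg hearts and 0.154 to 0.362 for Slit2-Tg after IR. In the other 2 comparisons 2 of 3 and 2 of 3 pairs were over 0.1. The pairing rests on these correlations, since no label ties a number to a batch. Python 3.11.15 (numpy 2.4.6, pandas 2.3.3, matplotlib 3.10.9) and R 4.3.3 with limma 3.58.1 were used.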

Additional observations from a re-analysis of the deposited data

How the results depend on the processing

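In 21 or 22 alternatives for each of the 7 comparisons, 0 proteasome subunit genes passed the adjusted threshold, and the smallest adjusted p was 0.188, in the mean IR effect. The number of intervals of the mean IR effect within 1.25-fold was 34 to 36. Separate fits of each pair of groups give no value for the interaction and the mean effects. The replicate block called 0 of the 36 genes in every comparison and moved the count at an unadjusted p under 0.05 from 2 to 4 genes in the mean Slit2-Tg effect and the intervals of the interaction within 1.25-fold from 8 to 13 genes, and it changed no call at the adjusted threshold. Scaled to reads outside the mitochondrial genome, the median log2 fold change of the genes was -0.083 in C57-IR against C57-non-IR, -0.050 in Slit2-IR against Slit2-non-IR and -0.069 in the mean IR effect, and Psmb2 reversed to -0.0019, -0.00028 and -0.0011. Without replicate 1 of every group, the median was -0.031 in Slit2-non-IR against C57-non-IR and the interaction of Psmb6 reversed to -0.013; the cause was not tested. Leaving out 1 library at a time, the median ranged from -0.048 to 0.055 in C57-IR against C57-non-IR and from -0.13 to -0.024 in Slit2-non-IR against C57-non-IR, with the value nearest 0 of the latter, and the highest of the former, when C57-non-IR replicate 1 was left out. It ranged from 0.014 to 0.060 for IR within Slit2-Tg hearts, from -0.0022 to 0.052 in the mean IR effect and from -0.076 to -0.021 for Slit2-Tg after IR. Counts at an unadjusted p under 0.05 then ran from 0 to 4 in Slit2-non-IR against C57-non-IR, from 0 to 1 in Slit2-IR against C57-IR and from 2 to 4 in the mean Slit2-Tg effect. Over all alternatives the last 2 ran from 0 to 2 and from 2 to 5. The counts over all alternatives ran from 0 to 2 in the mean IR effect and for IR within Slit2-Tg hearts. They ran from 0 to 1 in the interaction and stayed at 0 in C57-IR against C57-non-IR. Over the alternatives, Psmb2 and Psmb5 stayed at an unadjusted p under 0.05 in the mean Slit2-Tg effect. Depth limits the reading of Psma8 the most, with 7 to 23 reads per library. Next come Psmd10 (137 to 240 reads), Psmd5 (252 to 463) and Psmd9 (296 to 478).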
